A study of Danio rerio with 12 samples.

Results

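The genes described here are the activity-regulated synaptic and secreted effectors bdnf, vgf, scg2a, scg2b, nptx2a, nptx2b, homer1b, lrrtm2, rtn4rl2a and gpr3, which encode proteins that neurons secrete or place at synapses and on the cell surface. They were chosen by their symbols in the platform annotation, with earlier results of these arrays known, and where a gene had several probe sets the one chosen by the highest mean over the 12 arrays was to stand for it, so the tests below do not support the choice of genes. Of the 10 genes, 9 had a probe set assigned to that gene alone, in each case exactly 1, among 18338 genes measured on the array. The 10th, homer1b, had only a pair of probe sets that are also assigned to homer1, and these are given apart from the 9.

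Whole brains of adult AB males, 11 months old, were profiled on the Zebrafish Gene 1.1 ST platform of Affymetrix (3 fish per group, each on an array of its own) right after 30 min of exposure. Bystanders to interacting conspecifics (BIC) watched a fight and were attentive to it, bystanders to males that did not interact were either attentive to them (BANIC) or inattentive (BINIC), and isolated fish (ISOL) had no other fish to watch. All 12 fish, ISOL included, had spent the night before alone in the test tank, and bystanders saw the stimulus through a one-way mirror with no chemical contact. The fish were picked from larger treatment groups by how close and how directed to the stimulus they stayed, so attention was scored and not assigned. A whole-brain value averages over all regions, and in such bulk RNA fewer cells of a type and less RNA per cell cannot be told apart.

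When neurons fire, calcium entry and kinase signalling switch on a first set of genes within minutes, most of which encode transcription factors such as Npas4, Fos, Egr and Nr4a proteins. Together with factors already present, these act on a set of effector genes whose products reach the synapse, the secretory granule or the cell surface, and in mouse neurons Npas4 acts on Bdnf in this way. The comparison of interest was therefore whether the effectors had moved along with the transcription factors after 30 min.

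The values are normalized log2 intensities, where a difference of 1 is a factor of 2 in signal and values of different probe sets cannot be set against each other. Array medians lay between 5.54 and 5.59, and any pair of arrays correlated at 0.988 to 0.994 over all probe sets. Groups were compared with limma. A gene was called differentially expressed (DE) when its SD over the 12 arrays exceeded the median SD of 0.127, its Benjamini-Hochberg adjusted p was under 0.05 and its log2 difference was at least 1 in size. Of the 9 effectors, 6 passed the SD filter, and values for scg2a, scg2b and nptx2b come from the fit of all 18338 genes. Neuronal marker genes measured much alike in every brain, with a mean of 9.91 to 10.02 per fish over 6 genes that include snap25a, syt1a and elavl3.

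The transcription factors give the measure for the effectors. npas4a, the activity-regulated bHLH-PAS factor, measured 9.34, 9.63 and 9.19 in BIC fish, 8.83, 8.56 and 9.47 in BANIC fish, 7.50, 7.80 and 7.39 in BINIC fish and 6.98, 6.98 and 7.46 in ISOL fish. Every attentive fish (BIC or BANIC) thus lay above every other fish (BINIC or ISOL). Against ISOL the log2 difference of npas4a was 2.24 in BIC, 1.81 in BANIC and 0.42 in BINIC, with adjusted p-values of 0.000266, 0.00572 and 0.546. The Fos gene fosab differed from ISOL by 1.96 in BIC, 1.57 in BANIC and 0.29 in BINIC, egr4 by 1.57, 1.15 and 0.23, and the nuclear receptor gene nr4a1 by 1.60, 1.06 and -0.02. These 3 factors were DE in BIC and in BANIC and not in BINIC, as npas4a was, whereas npas4b (0.71, 1.03 and -0.45) was DE in none of the 3 groups. The values of npas4b come from the 1 probe set that the platform annotation assigns to it, and a further one that the study assigns to this gene was not used here, so they do not show that npas4b failed to respond.

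The largest difference from ISOL among the effectors that were higher in BIC was that of gpr3 (Entrez 796164), which encodes a receptor that signals through Gs and raises cyclic AMP without a known need for a ligand. It measured 7.84, 8.45 and 8.11 in BIC fish, 7.70, 7.61 and 8.08 in BANIC fish, 7.20, 7.78 and 7.39 in BINIC fish and 6.67, 6.69 and 7.27 in ISOL fish. The BIC and BANIC fish all lay above the ISOL fish, while the BINIC fish lay in between and overlapped with both BANIC and ISOL. The group means ran in the order BIC (8.13 ± 0.31), BANIC (7.80 ± 0.25), BINIC (7.46 ± 0.30) and ISOL (6.88 ± 0.34; SD, n = 3 each), and the values of neighbouring groups overlapped at each step. The 6 attentive fish averaged 7.96 ± 0.31 and the 6 other fish 7.17 ± 0.43 (SD). gpr3 was thus 1.74-fold higher in attentive fish (log2 difference 0.80 ± 0.14, SE, adjusted p = 0.0240). With the same kind of stimulus, gpr3 in BANIC differed from BINIC by 0.34 ± 0.17 (log2, SE, adjusted p = 0.688), with overlap. The difference of BIC from BANIC was 0.33 ± 0.18 (adjusted p = 0.9995). Neither passed the adjusted threshold. The part of the stimulus in the difference of attentive from other fish was not tested for gpr3.

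Against ISOL, gpr3 was 2.39-fold higher in BIC fish (log2 difference 1.26 ± 0.20, SE, 95% interval 0.83 to 1.68), 1.89-fold higher in BANIC fish (0.92 ± 0.19, interval 0.51 to 1.33) and 1.5-fold higher in BINIC fish (0.58 ± 0.19, interval 0.16 to 1.0). The adjusted p-values of these differences were 0.0504, 0.136 and 0.455, so gpr3 missed the DE call in BIC by its adjusted p alone. It was DE in BIC under 6 of 7 alternative settings that kept every fish and used no replicate block (adjusted p 0.0142 to 0.0430). It was not DE without the SD filter (0.494). Without ISOL replicate 3 it was DE in BIC (1.45, adjusted p = 0.0128) and in BANIC (1.12, adjusted p = 0.0394). Those fits drop the highest ISOL fish (7.27 against 6.67 and 6.69), so their calls add no evidence. gpr3 was also DE in BIC without BIC replicate 1, but not without BIC replicate 2 or 3 or ISOL replicate 1 or 2. In BANIC it was not DE when any other fish was left out. The adjusted p of attentive against other fish was 0.175 without the SD filter, 0.0689 in a fit of 2 group means, 0.0576 with a trended and robust variance, and 0.0501 to 0.0965 when any one of 8 fish was left out, that is BIC replicates 2 and 3, BANIC replicates 1 and 3, BINIC replicates 1 and 3, and ISOL replicates 1 and 2.

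The other effector that rose in attentive fish was rtn4rl2a (Entrez 403307), a gene of the Nogo receptor family of leucine-rich-repeat surface proteins, which in mammals bind myelin proteins and restrain the growth of axons and synapses. It measured 7.57, 8.04 and 7.80 in BIC fish, 7.81, 7.64 and 7.65 in BANIC fish, 7.19, 7.27 and 7.17 in BINIC fish and 7.23, 6.92 and 7.37 in ISOL fish. All 6 attentive fish lay above all 6 other fish, with means of 7.75 ± 0.17 and 7.19 ± 0.15 (SD), whereas BIC and BANIC overlapped with each other and BINIC and ISOL did so too. rtn4rl2a was 1.47-fold higher in attentive fish (log2 difference 0.56 ± 0.10, SE, adjusted p = 0.0257). The adjusted p was 0.0652 without the SD filter and 0.0526 to 0.101 when any one fish other than BIC replicate 1 or ISOL replicate 3 was left out, with a log2 difference of 0.50 to 0.58 in those fits.

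Against ISOL, rtn4rl2a differed by 0.63 ± 0.16 in BIC, 0.53 ± 0.14 in BANIC and 0.04 ± 0.14 in BINIC (log2, SE), with adjusted p-values of 0.524, 0.450 and 0.948. Between BANIC and BINIC fish, which had the same kind of stimulus, it differed by 0.49 ± 0.11 (adjusted p = 0.334). These groups did not overlap, but the share of all genes with such a separation was not taken. Between BIC and BANIC fish rtn4rl2a differed by 0.10 ± 0.14 (95% interval -0.20 to 0.41). Of the 6 comparisons only that of the 6 attentive with the 6 other fish passed the adjusted threshold. Its paralog rtn4rl2b was 0.44 ± 0.12 higher in attentive fish in the fit of all genes (log2, SE, adjusted p = 0.522).

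**Figure D1:**
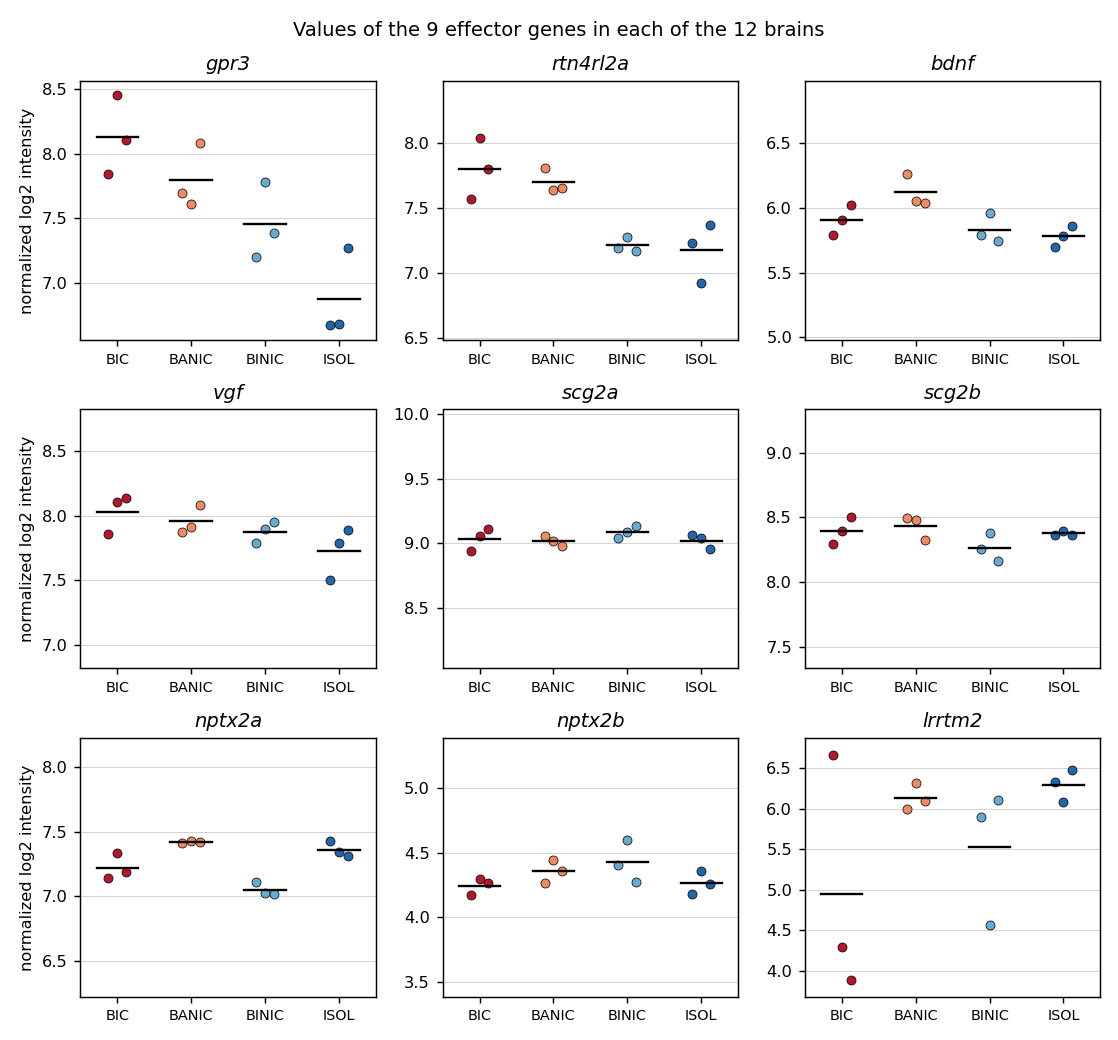
Normalized log2 intensity (vertical axis) of the 9 effector genes in the 3 fish of each group (points, in the order of their replicate numbers) with the group mean as a bar; every panel spans 2 log2 units except that of lrrtm2, which spans 3.2. All 6 BIC and BANIC fish lie above all 6 BINIC and ISOL fish for rtn4rl2a, gpr3 steps down over the 4 groups, and lrrtm2 drops to between 3.89 and 4.57 in 3 fish.

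The secreted neurotrophin gene bdnf (Entrez 58118), whose product acts on TrkB receptors and strengthens excitatory synapses, measured 5.79, 5.91 and 6.02 in BIC fish, 6.27, 6.06 and 6.04 in BANIC fish, 5.79, 5.96 and 5.75 in BINIC fish and 5.70, 5.79 and 5.86 in ISOL fish. The 3 BANIC fish held the 3 highest values, above every fish of the other groups, and BIC, BINIC and ISOL overlapped. Against ISOL, bdnf differed by 0.34 ± 0.13 in BANIC, 0.13 ± 0.13 in BIC and 0.05 ± 0.13 in BINIC (log2, SE), with adjusted p-values of 0.736, 0.906 and 0.915. The difference of BIC from BANIC was -0.21 ± 0.12 (95% interval -0.48 to 0.05) and that of attentive from other fish 0.21 ± 0.08 (adjusted p = 0.703). No comparison of bdnf passed the adjusted threshold. Of 14 other neurotrophin and receptor genes on the array, such as ntrk2b and ngfrb, 0 had an unadjusted P under 0.01 in attentive against other fish, beside 1.73% of all genes, so the count is no result about the family, and their median log2 difference was 0.01. Between BANIC and BINIC fish 1 of the 14 was under 0.01, beside 2% of all genes, which again is no result about the family. This was the protease gene furinb, which lay lower in BANIC (-0.38 ± 0.11, log2, SE, adjusted p = 0.494 without the SD filter).

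vgf (Entrez 100535309), which encodes a granin-like precursor of secreted peptides, measured 7.86, 8.10 and 8.13 in BIC fish, 7.87, 7.91 and 8.08 in BANIC fish, 7.79, 7.89 and 7.95 in BINIC fish and 7.51, 7.79 and 7.89 in ISOL fish. The means of vgf ran in the same order of groups as those of gpr3, with every step between neighbours inside the spread of the fish. Its log2 difference from ISOL was 0.30 ± 0.14 in BIC (95% interval -0.01 to 0.62), 0.23 ± 0.14 in BANIC and 0.15 ± 0.14 in BINIC (SE), and the adjusted p-values were 0.882, 0.854 and 0.750.

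The secretogranins scg2a (Entrez 793796) and scg2b (Entrez 777641), proteins of dense-core granules that are cut into secretoneurin and other peptides, were the flattest of the effectors. scg2a measured 8.94, 9.06 and 9.11 in BIC fish, 9.05, 9.02 and 8.98 in BANIC fish, 9.04, 9.09 and 9.13 in BINIC fish and 9.07, 9.04 and 8.95 in ISOL fish, so that all 4 groups overlapped. Its difference between attentive and other fish was -0.03 ± 0.05 on the log2 scale, with a 95% interval of -0.13 to 0.07. scg2b measured 8.30, 8.40 and 8.50 in BIC fish, 8.50, 8.48 and 8.33 in BANIC fish, 8.26, 8.38 and 8.16 in BINIC fish and 8.37, 8.40 and 8.37 in ISOL fish, again with overlap, and differed by 0.10 ± 0.06 (SE) between attentive and other fish. Among 18 other granin and prohormone-processing genes, such as chga, chgb, pcsk1 and cpe, 0 had a P under 0.01 in any of the 6 comparisons, beside 0.649% to 2.25% of all genes per comparison, which makes the count no result about the family.

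nptx2a (Entrez 553230), a secreted pentraxin that gathers AMPA receptors at excitatory synapses, had another order of group means. It measured 7.14, 7.34 and 7.19 in BIC fish, 7.41, 7.42 and 7.42 in BANIC fish, 7.11, 7.03 and 7.02 in BINIC fish and 7.43, 7.34 and 7.31 in ISOL fish. The 3 BINIC fish were the 3 lowest of the 12, and the BANIC fish lay close together between 7.41 and 7.42. The log2 difference of nptx2a was 0.37 ± 0.11 between BANIC and BINIC (adjusted p = 0.556), -0.31 ± 0.12 between BINIC and ISOL (adjusted p = 0.554) and -0.20 ± 0.11 between BIC and BANIC (SE, adjusted p = 0.9995). In these 3 comparisons the groups did not overlap, and none passed the adjusted threshold. The share of all genes with such a separation was not taken for them. In BINIC against ISOL 8.56% of all genes were higher without overlap, so a separation of 3 from 3 fish is no result by itself. The paralog nptx2b (Entrez 556906), with values of 4.17 to 4.60 in all 12 fish, overlapped between all groups and differed by -0.05 ± 0.06 (log2, SE) between attentive and other fish. All its values were below the array medians of 5.54 to 5.59, and whether its probe set detected the transcript was not tested.

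lrrtm2 (Entrez 100538061), a postsynaptic leucine-rich-repeat protein that binds neurexins, was the most variable of the 9. It measured 6.67, 4.29 and 3.89 in BIC fish, 6.0, 6.32 and 6.09 in BANIC fish, 5.90, 4.57 and 6.10 in BINIC fish and 6.33, 6.08 and 6.48 in ISOL fish. BIC replicates 2 and 3 and BINIC replicate 2 thus lay more than 1 log2 unit below the other 9 fish, while BIC replicate 1 was the highest of all. The values of the low fish were below the array medians of 5.54 to 5.59. Whether the probe set detected the transcript in them was not tested. The log2 difference of BIC from ISOL was -1.35 ± 0.53 (SE, adjusted p = 0.870). Without BIC replicate 1 it was -2.21 (adjusted p = 0.000364) and the difference of BIC from BANIC -2.05 (adjusted p = 0.00291). Those fits drop the BIC fish that disagreed and keep only replicates 2 and 3, so they are no evidence of a lower level in BIC. A low value also occurred in BINIC replicate 2. The pair of probe sets assigned to both homer1b and homer1, genes of a scaffold that ties metabotropic glutamate receptors to calcium stores, ranged from 7.27 to 7.69 and from 6.80 to 7.42 over the 12 fish, with differences between attentive and other fish of -0.01 and -0.03 on the log2 scale.

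**Figure D2:**
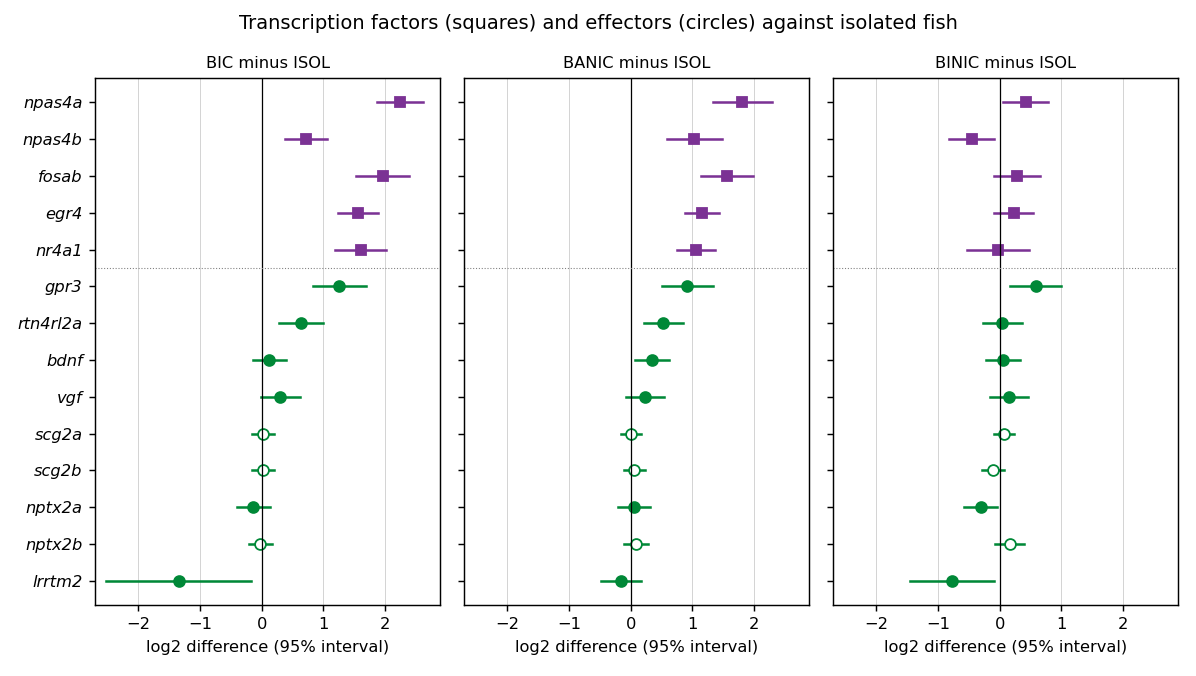
Log2 difference from ISOL (horizontal axis) with its 95% interval for 5 transcription factors (squares) and the 9 effectors (circles) in BIC, BANIC and BINIC; open circles are genes below the SD filter, from the fit of all genes. In BIC the factors lie between 0.71 (npas4b, from its annotated probe set only) and 2.24, gpr3 at 1.26 and rtn4rl2a at 0.63, while bdnf, scg2a, scg2b, nptx2a and nptx2b lie between -0.14 and 0.13.

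Against ISOL and in attentive against other fish, the median effector lay close to all genes. Between BANIC and BINIC fish it lay higher. The 5 factors set beside the effectors are no neutral measure, because they were picked with their response in these arrays known. In BIC against ISOL the median log2 difference of the effectors was 0.02, beside -0.01 over all 18338 genes and 1.60 over the 5 factors. In BANIC it was 0.09 (all genes -0.01, factors 1.15), in BINIC 0.05 (0.01 and 0.23) and in attentive against other fish 0.11 (-0.01 and 1.34). Between BANIC and BINIC fish it was 0.29 (-0.02 and 1.28), and between BIC and BANIC fish -0.04 (0.00044 and 0.41). A wider list of 51 activity-regulated transcription factor genes includes these 5 factors. Its median was 0.27 in BIC, 0.20 in BANIC, 0.0047 in BINIC and 0.26 in attentive fish. For this list it was 0.16 between BANIC and BINIC fish and 0.09 between BIC and BANIC fish. Of the 9 effectors, 6 lay above 0 in BIC, 7 in BANIC, 6 in BINIC and 6 in attentive fish. Between BANIC and BINIC fish 7 lay above 0, and between BIC and BANIC fish 4.

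None of the 9 effectors was DE in limma in any of the 6 comparisons. The share of tested genes that were DE was 0.0763% in BIC against ISOL, 0.109% in BANIC against ISOL, 0.0218% in BINIC against ISOL, 0.0763% in attentive against other fish, 0.0109% in BANIC against BINIC and 0.0218% in BIC against BANIC. scg2a, scg2b and nptx2b did not pass the SD filter and so could not be called. At such shares a count of 0 among the 6 effectors that passed it is no result about the effectors. The looser counts below were taken over all 9 effectors in the fit without the SD filter, with the share of all 18338 genes beside them.

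In BIC against ISOL, 2 effectors (rtn4rl2a and gpr3) had an unadjusted P under 0.01, beside 1.03% of all genes, and 3 (these and vgf) one under 0.05, beside 5.63%. The BIC values of rtn4rl2a and gpr3 lay above all ISOL values, which held for 4.68% of genes. In BANIC against ISOL, bdnf, rtn4rl2a and gpr3 made 3 effectors under 0.01 (1.31% of all genes) and the same 3 under 0.05 (5.89%), and these 3 were higher without overlap (4.88%). In BINIC against ISOL, 1 effector was under 0.01 (nptx2a, lower, beside 2.25% of all genes), 2 under 0.05 (nptx2a and gpr3, beside 9.31%) and 0 were higher without overlap (8.56%).

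In attentive against other fish, 2 effectors (rtn4rl2a and gpr3) of the 6 that passed the SD filter had an adjusted p under 0.05, beside 0.196% of the genes tested. Unadjusted, 3 of the 9 (bdnf, rtn4rl2a and gpr3) had a P under 0.01, beside 1.73% of all genes, and 5 (these, vgf and nptx2a) one under 0.05, beside 7.2%. Only rtn4rl2a among the effectors had all attentive fish above all other fish, which held for 0.218% of genes. Between BANIC and BINIC fish, nptx2a and rtn4rl2a were the 2 effectors under 0.01 (2% of all genes), joined by bdnf under 0.05 (8.54%). Between BIC and BANIC fish, the kind of stimulus among attentive fish, 0 effectors were under 0.01 (0.649%) and 1 under 0.05 (nptx2a, lower in BIC, beside 4.22%).

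**Figure D3:**
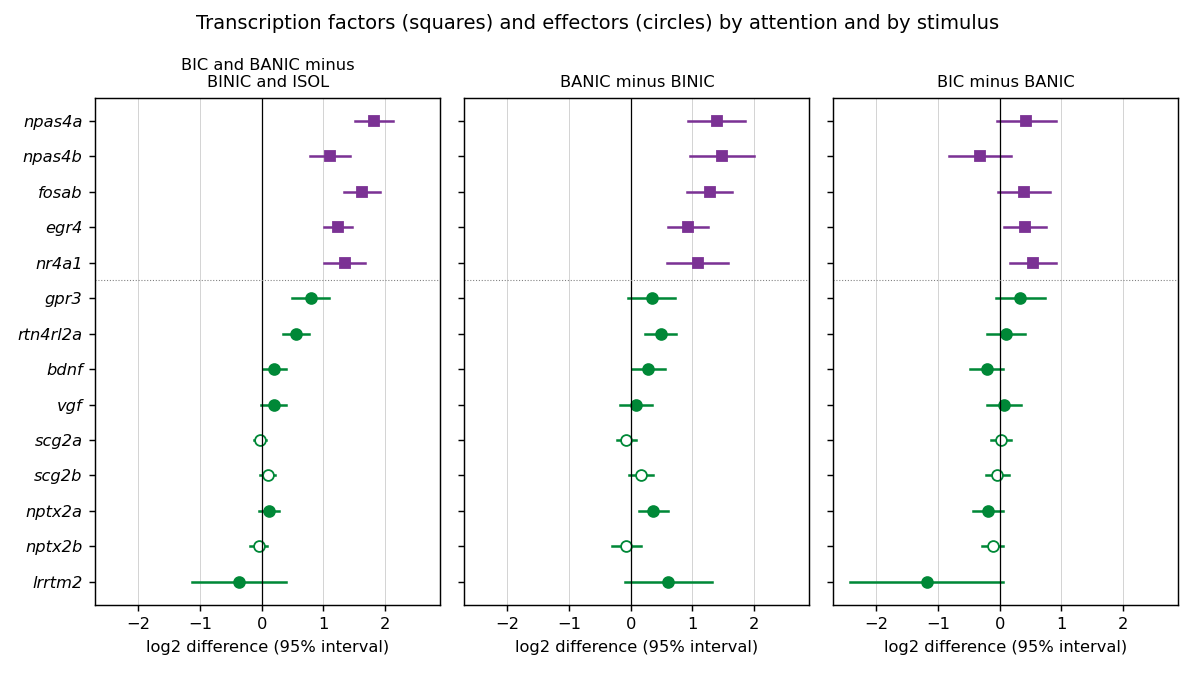
Log2 difference (horizontal axis) with its 95% interval for the 5 transcription factors (squares) and the 9 effectors (circles) between attentive (BIC and BANIC) and other (BINIC and ISOL) fish, between BANIC and BINIC, and between BIC and BANIC; open circles are genes below the SD filter. Between attentive and other fish gpr3 lies at 0.80 and rtn4rl2a at 0.56, below the factors at 1.10 to 1.82. Between BIC and BANIC the interval drawn for every effector includes 0. For nptx2a this holds with the SD filter, as drawn, and not in the fit of all genes (-0.36 to -0.03).

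Whether an effector followed the factors from fish to fish was asked within the 6 attentive and within the 6 other fish, because the factors set these apart: the mean of npas4a, fosab, egr4 and nr4a1 lay between 7.42 and 8.39 in attentive fish and between 6.03 and 6.58 in other fish. Over 18 relations (9 effectors in each set of fish), 1 passed the Benjamini-Hochberg threshold. gpr3 went with the factor mean among attentive fish (Pearson r = 0.97, exact permutation p = 0.00139, two-sided, the smallest that the 720 orders of 6 fish can give, adjusted p = 0.0250). Spearman's rho was 1.0 (exact permutation p = 0.00278, adjusted p = 0.05, which is not under the threshold). Without BIC replicate 2 and BANIC replicate 2, the fish farthest from the median, r was 0.87. BIC and BANIC fish were pooled in this relation and both gpr3 and the factors averaged higher in BIC, and the part of the stimulus in it was not tested.

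Among the 6 other fish, r between gpr3 and the factor mean was 0.87 (exact permutation p = 0.0250, adjusted p = 0.150; rho = 0.94, exact permutation p = 0.0167, adjusted p = 0.10) and 0.63 without ISOL replicate 1 and BINIC replicate 2. BINIC and ISOL fish were pooled here, and the means of gpr3 and vgf and the median of the factor mean were all higher in BINIC (7.46, 7.88 and 6.54) than in ISOL (6.88, 7.73 and 6.26), and the part of that group difference in these relations was not tested. vgf had r = 0.91 among the other fish (exact permutation p = 0.00694, adjusted p = 0.0625; rho = 0.94, exact permutation p = 0.0167, adjusted p = 0.10), with 0.98 when the same pair of fish was left out. With the mean of npas4a and fosab alone it was 0.87 (exact permutation, adjusted p = 0.188; rho = 0.54) and -0.28 without ISOL replicates 1 and 2, so this relation rests on those fish and on the factors chosen. vgf had r = 0.67 among attentive fish (exact permutation p = 0.172, adjusted p = 0.388). rtn4rl2a, which separated attentive from other fish, had r = 0.68 within attentive fish (exact permutation p = 0.135, adjusted p = 0.388), which was -0.31 without the 2 farthest fish, and r = 0.18 within other fish (exact permutation p = 0.764, adjusted p = 0.764). For the remaining 6 effectors r ran from -0.67 (lrrtm2) to 0.20 (scg2a) in attentive fish and from -0.80 (nptx2a) to 0.68 (bdnf) in other fish.

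**Figure D4:**
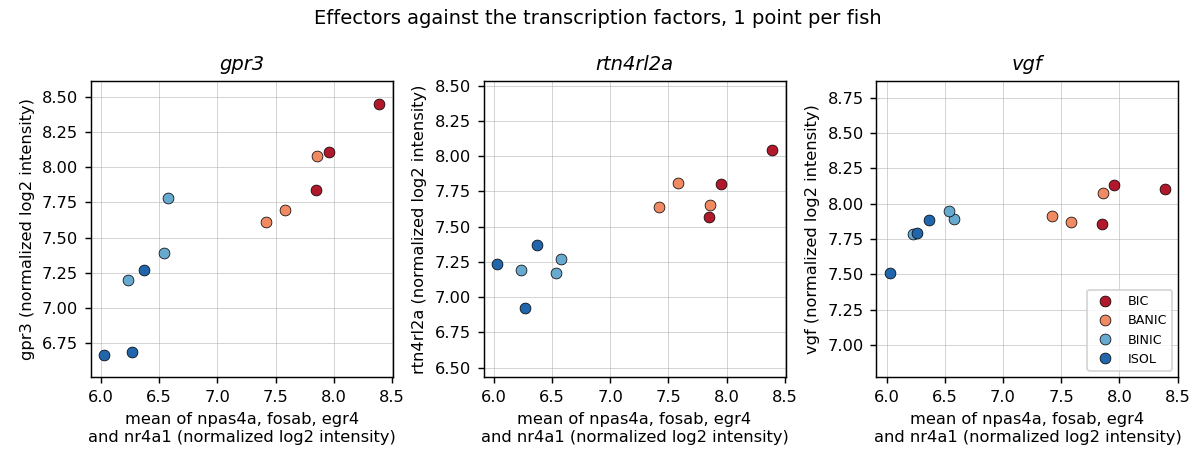
Normalized log2 intensity of gpr3, rtn4rl2a and vgf (vertical axes, all spanning 2.1 log2 units) against the mean of npas4a, fosab, egr4 and nr4a1 (horizontal axes), 1 point per fish coloured by group. For gpr3, r is 0.97 in BIC and BANIC fish and 0.87 in BINIC and ISOL fish (exact permutation, adjusted p = 0.0250 and 0.150). rtn4rl2a steps up between the sets with r = 0.18 inside the BINIC and ISOL set, and vgf has r = 0.91 in that set (adjusted p = 0.0625). Each set pools a pair of groups, whose part in r was not tested.

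Over all 12 arrays, and as a description only since the attentive and other fish stand apart in these genes, the profile most like that of gpr3 among 9168 genes was fosb (r = 0.95), a Fos family gene, followed by dusp6 (0.94), a phosphatase of MAP kinases. For rtn4rl2a it was sik1 (0.95), a salt-inducible kinase gene, followed by dusp1 (0.95). npas4a ranked 8th for gpr3 (r = 0.91) and 8th for rtn4rl2a (r = 0.90), and egr4 ranked 10th and 5th. For bdnf npas4a ranked 237th (r = 0.58) and for vgf 78th (r = 0.72), while scg2a, nptx2b and lrrtm2 had negative r with each of the 4 factors.

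Genes of these pathways were taken from lists of known members. Of 51 activity-regulated transcription factor genes, 19 were higher and 0 lower at P under 0.01 in attentive than in other fish, where 1.73% of all genes had such a P in either direction. The 51 include the 5 factors set beside the effectors, which were picked with their response known. All 5 are among the 19, so that part of the count was fixed by the choice. Of 42 further activity-regulated effector genes, 7 were higher and 1 lower, with a median of 0.07. Among these were the kinase genes sik1 (0.89 ± 0.14, adjusted p = 0.00463 with the SD filter) and pim1 (0.58 ± 0.11, adjusted p = 0.0504), and the regulator of G protein signalling rgs2, which lay lower (-0.30 ± 0.06, adjusted p = 0.352). In the families of the effectors themselves, 1 of 27 pentraxin, LRRTM and Nogo receptor genes with their partners had a P under 0.01 (rtn4rl2b), as did 0 of 14 Homer partners such as grm5a and the shank genes, and 0 of 9 relatives of gpr3 and enzymes of cyclic AMP. Counts of 0 or 1 in lists of this size are near the share over all genes (1.73%) and are no result about these families. gpr185b, from the group of receptors closest to gpr3, differed by 0.26 ± 0.09 between attentive and other fish (log2, SE, adjusted p = 0.578 without the SD filter). In BIC against ISOL gpr185b was higher (0.40 ± 0.11) and gpr6, on the same list, lower (-0.26 ± 0.11). The limma adjusted p-values without the SD filter were 0.873 and 0.878, so the relatives of gpr3 showed no common direction.

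Some lists of markers of cells outside the neuronal population had median differences away from 0 between attentive and other fish, but the values of the fish overlapped. The mean of 4 erythrocyte genes, among them the globin genes hbaa2 and hbba2, ranged from 6.47 to 7.98 in attentive fish and from 6.01 to 7.79 in other fish, with a median log2 difference of 0.47 and 0 of 4 at P under 0.01. The mean of 5 photoreceptor and pineal genes ranged from 3.65 to 4.87 in attentive fish and from 3.73 to 5.0 in other fish, with a median difference of -0.47 and again 0 of 5 at P under 0.01. In BIC against ISOL their median was -0.52, and the mean ranged from 3.68 to 3.88 in BIC and from 3.73 to 5.0 in ISOL. There 1 of the 5 was under 0.01, beside 1.03% of all genes (pde6a, -0.92 ± 0.26, log2, SE, adjusted p = 0.524). Of the 6 radial glia genes only her4.1, a Notch target, was under 0.01 in attentive against other fish (0.68 ± 0.14 higher in attentive fish, adjusted p = 0.0502). In that comparison the radial glia list had a median of 0.025, and gfap differed in the other direction (-0.14 ± 0.09). Against ISOL, her4.1 differed by 0.26 ± 0.15 in BIC, 0.30 ± 0.20 in BANIC and -0.80 ± 0.18 in BINIC (log2, SE). Its adjusted p-values were 0.882, 0.862 and 0.241. All BINIC values of her4.1 lay below all ISOL values, while BIC and BANIC overlapped with ISOL. Between BANIC and BINIC fish the erythrocyte mean did not overlap (7.17 to 7.51 in BANIC, 6.62 to 6.93 in BINIC). Of its 4 genes, 2 were under 0.01, beside 2% of all genes (hbaa2, 0.73 higher in BANIC, and alas2, 0.50 higher). her4.1 was 1.10 higher in BANIC, whereas gfap differed by -0.37 ± 0.14. The part of these markers in the values of gpr3, rtn4rl2a and nptx2a was not tested. The neuronal markers had a median difference of -0.01, with 1 of 6 under 0.01 (stmn2a, 0.17 ± 0.05 higher in attentive fish), while snap25b differed in the other direction (-0.10 ± 0.07).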

How the data were processed

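RNA of 12 whole brains, 3 per group, was measured on the Zebrafish Gene 1.1 ST platform of Affymetrix. The authors normalized the arrays with oligo and RMA and deposited log2 values, 1 per probe set and array, for 23467 probe sets. No sample columns were left unused and the deposited table holds no comparison of the authors. Probe sets were named by the platform annotation, and RefSeq lists 18243 of the 18338 genes. Where a gene had several single-gene probe sets, the one of highest mean was kept.

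Groups were compared with limma 3.58.1 in R 4.3.3 on the 6 arrays of each pair, and attentive with other fish on all 12, with Benjamini-Hochberg adjustment over the 9169 genes whose SD exceeded the median SD or, where stated, over all 18338. Correlations used exact permutation in scipy 1.17.1. The fit was checked on simulated data. Genes named are all effectors, 5 transcription factors, up to 3 genes of smallest P per list and comparison, the 2 most similar profiles per effector, and for the lists of markers examples of their members. Examples of list members given without a value were chosen freely. The effectors, lists and tests were chosen with earlier results of these data known. Alternatives were other filters, fits, variances, scalings, array weights, a replicate block and leaving out each fish. Counts and depths do not apply to arrays.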

Additional observations from a re-analysis of the deposited data

Results flagged for a closer look

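Dixon's test at the 95% level was run on the 9 effectors within the 6 attentive and the 6 other fish, and chance sets apart about 1 in 20 such groups. vgf was set apart in ISOL replicate 1, at 7.51 against 7.79 to 7.95 in the other 5 of the BINIC and ISOL fish. This fish also had the lowest mean of npas4a, fosab, egr4 and nr4a1 of all 12 (6.03). lrrtm2 was set apart in BINIC replicate 2, at 4.57 against 5.90 to 6.48 in the other 5. In BIC the same gene lay at 4.29 and 3.89 in replicates 2 and 3 and at 6.67 in replicate 1, a spread that the test over the 6 attentive fish did not set apart. What these fish share was not tested.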

How the results depend on the processing

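The log2 differences of the 6 effectors that passed the SD filter were recomputed under the alternatives, which gave 534 values. Of these, 498 kept their side of the adjusted threshold, 22 lost the threshold and 14 reached it. Among those past the threshold in either setting 0 turned direction, while 4 values near 0, all among the 498, changed sign. All 22 losses were of gpr3 and rtn4rl2a in attentive against other fish, the only 2 differences past the threshold in the main fit. Most of the 498 were past it in neither setting, so their number does not show that these 2 calls were stable. The number of DE effectors in BIC against ISOL was 0 and became 1 (gpr3) with dim genes removed, in a fit of all 4 groups, with trended and robust variances, with the mean of all probe sets, with array weights, with arrays centred on their median and with the replicate number as a block, and ran from 0 to 2 when 1 fish was left out (gpr3 with lrrtm2 without BIC replicate 1, gpr3 without ISOL replicate 3). It ran from 0 to 1 in BANIC against ISOL (gpr3, without ISOL replicate 3) and from 0 to 1 in BIC against BANIC (lrrtm2, without BIC replicate 1). The labels give the replicate numbers no meaning. Deviations of same-numbered fish from their group means correlated at -0.14 to 0.18, with 1 of 18 above 0.1. Those of fish with different numbers correlated at -0.19 to 0.14, with 3 of 36 above 0.1. Such weak correlations cannot settle whether the numbers pair the fish. With the number as a block, the adjusted p of gpr3 was 0.00895 in BIC and 0.0395 in BANIC, and the calls of gpr3 and rtn4rl2a in attentive fish remained. In BANIC gpr3 also passed with trended and robust variances (0.0473). With the mean of npas4a and fosab alone, r of gpr3 in attentive fish was 0.95 (exact permutation, adjusted p = 0.05) and rho 0.94 (exact permutation, adjusted p = 0.2625). With this mean r of nptx2a in other fish was -0.88 (adjusted p = 0.05), and that of vgf in other fish 0.87 (adjusted p = 0.188). None of these is under 0.05, so the passing of gpr3 in attentive fish depends on the factors chosen. scg2a, scg2b and nptx2b were fitted only without the SD filter. Other probe sets of an effector could not be tried, because each has 1. Why calls changed was not tested. Leaving out the SD filter raised the number of genes tested from 9169 to 18338 and changed the moderated variances as well. The unadjusted limma P of gpr3 in BIC against ISOL, for one, was 4.4e-05 with the filter and 0.000323 without it. With 3 fish per group, precision is limited by the number of arrays.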
